A study of Mus musculus with 2 samples.

Results

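The 9 genes described here, Pf4, Ppbp, Gp9, Gp1bb, Vwf, Itga2b, Itgb3, Treml1 and Plek, encode platelet proteins and were taken as a fixed list of symbols out of the 32285 genes counted. All 9 were measured in both libraries. They were followed in megakaryocyte-like cells, in Hlf Mecom stem-like cells, in cells holding transcripts of Gata1 and Gata2, and in 7 other cell classes gated on marker genes that include none of the 9.

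The study counted transcripts per cell (10x Genomics single cell 3' v3) in mouse fetal liver of the CD1 strain at E14.5. There was 1 library of IκBα wild-type cells (WT, a pool of 2 embryos) and 1 of IκBα knockout cells (KO, a pool of 3 embryos), and IκBα is the NF-κB inhibitor encoded by Nfkbia, which the knockout lacks from conception and in every cell. Both were depleted of lineage-positive cells and sorted as LSK, the lineage-negative Sca1+ cKit+ stem and progenitor gate, although the sample titles name LT-HSC. With 1 library for each genotype, genotype, embryo pool and library cannot be told apart, and no difference between KO and WT carries a p-value.

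The WT library held 3840 barcodes and 109122324 unique molecular identifiers (UMIs, counts of distinct captured transcripts), and the KO library 4928 barcodes and 100029143 UMIs, with 7 barcodes in common. After filtering, 3458 WT and 4417 KO cells remained, at a median of 28065 and 19560 UMIs per cell. Nfkbia stood at 1484 UMIs in WT and 7 in KO. Cells with Xist and no Y-linked transcript were 95.9% of the WT and 69.4% of the KO cells.

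Megakaryocyte-like cells, defined by at least 7 of 12 megakaryocyte markers, numbered 32 in WT (0.925% of cells) and 72 in KO (1.63%). Their leading genes over the other classes were Pf4, Ppbp, Thbs1, Timp3, Itgb3 and Gp1bb. Ly6a, which encodes Sca1, had 2 and 3 UMIs in them, or 1.30 and 0.966 CPM. CPM are UMIs of a gene scaled to a common total of UMIs per class. Stem-like cells held Ly6a at 29.6 and 34.0 CPM. Kit had 21 and 45 UMIs in megakaryocyte-like cells (13.66 and 14.49 CPM), against 111 and 97.4 CPM in stem-like cells. Both sort markers were thus lower in megakaryocyte-like than in stem-like cells of both libraries. Low Ly6a was not particular to them. It stood at 1.86 and 2.03 CPM in the class with Gata1 and Gata2, and at 0.853 and 0.884 CPM in erythroid-like cells. Kit was higher in these 2 classes than in megakaryocyte-like cells, at 80.3 and 54.3 CPM and at 36.1 and 31.97 CPM. Stem-like cells, with at least 1 UMI of both Hlf and Mecom and no other gate passed, numbered 387 and 331 and had Procr, a stem cell marker left out of the gate, at 30.3 and 29.4 CPM. Cells with UMIs of Gata1 and Gata2 and no other gate passed (Gata1+Gata2+ cells) numbered 94 and 116, and mast-cell genes such as Ms4a2, Cpa3 and Hdc were among their leading genes, so they are called by their gate only.

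Platelets are shed by megakaryocytes, large polyploid cells that descend from stem cells through progenitors driven by Gata factors. They carry the adhesion receptor GPIb-IX-V, which holds on to von Willebrand factor, and the fibrinogen receptor αIIbβ3, and they pack chemokines into alpha granules. Transcripts of platelet genes are also known in part of the blood stem cells, which is called megakaryocyte priming, and Vwf marks such platelet-biased stem cells in adult bone marrow. The comparisons below give the level of each gene where it is high, the level in classes that should lack it, and the KO value beside the WT value.

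Promoters from 250 bases before to 50 after a gene start were taken from RefSeq (GRCm38.p6) for 7 of the 9 genes, and Vwf and Itgb3 had no entry. These starts are not always those of the gene coordinates given below. The Plek window, chr11:17008669-17008968, lies inside the Plek coordinates, and most of the Itga2b window lies inside those of Itga2b. The sequences of Pf4, Gp9 and Itga2b are shown because Pf4 had the most UMIs of the 9 genes in megakaryocyte-like cells, Gp9 the most in stem-like cells, and Itga2b was a gene raised in Gata1+Gata2+ cells. Capitals mark GATAA or its reverse complement TTATC, the core of a Gata site, and GGAAG or its reverse complement CTTCC, the core of an Ets site, searched on both strands; no overlap between the letters of the motifs occurs in these windows. They lie at chr5:90772185-90772484 (plus strand), chr6:87777820-87778119 (plus strand) and chr11:102469834-102470133 (minus strand), and each is written 5′ to 3′ on the strand of its gene.
Pf4: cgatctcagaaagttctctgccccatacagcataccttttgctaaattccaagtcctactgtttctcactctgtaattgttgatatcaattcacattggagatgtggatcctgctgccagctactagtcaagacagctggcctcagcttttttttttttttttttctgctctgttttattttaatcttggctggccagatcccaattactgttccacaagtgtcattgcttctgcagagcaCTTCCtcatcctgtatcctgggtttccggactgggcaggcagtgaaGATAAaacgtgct
Gp9: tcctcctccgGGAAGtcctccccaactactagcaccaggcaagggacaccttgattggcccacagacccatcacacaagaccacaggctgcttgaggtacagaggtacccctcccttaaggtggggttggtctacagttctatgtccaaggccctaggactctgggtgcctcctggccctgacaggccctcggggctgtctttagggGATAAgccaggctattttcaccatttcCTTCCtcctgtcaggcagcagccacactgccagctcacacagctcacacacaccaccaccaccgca
Itga2b: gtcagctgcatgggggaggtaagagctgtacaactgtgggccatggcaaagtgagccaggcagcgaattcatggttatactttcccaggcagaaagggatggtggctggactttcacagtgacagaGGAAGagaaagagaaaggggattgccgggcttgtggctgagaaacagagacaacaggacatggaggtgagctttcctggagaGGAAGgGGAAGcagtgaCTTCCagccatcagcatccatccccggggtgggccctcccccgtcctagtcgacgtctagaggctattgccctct

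Pf4 had 1 GATAA and 1 GGAAG match, Gp9 had 1 and 2, and Itga2b had 0 and 4. GATAA occurred in 3 of the 7 promoters (Pf4, Gp9 and Plek) and in 25.4% of 32851 promoters of the same length, and GGAAG occurred in 6 of 7 and in 71.4%. These matches describe the letters of the windows only.

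All 9 genes were highest in the megakaryocyte-like cells of both libraries. The UMIs of each class were added up per library and scaled to its total, and intervals in brackets are exact 95% Poisson intervals, which cover counting error only. Counts of 3' ends are not scaled by transcript length, so levels are set side by side between classes and not between genes. Since Pf4, Ppbp, Itgb3, Gp1bb and Treml1 were also among the leading genes of the class, its level against others describes the class as much as the genes.

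**Figure D1:**
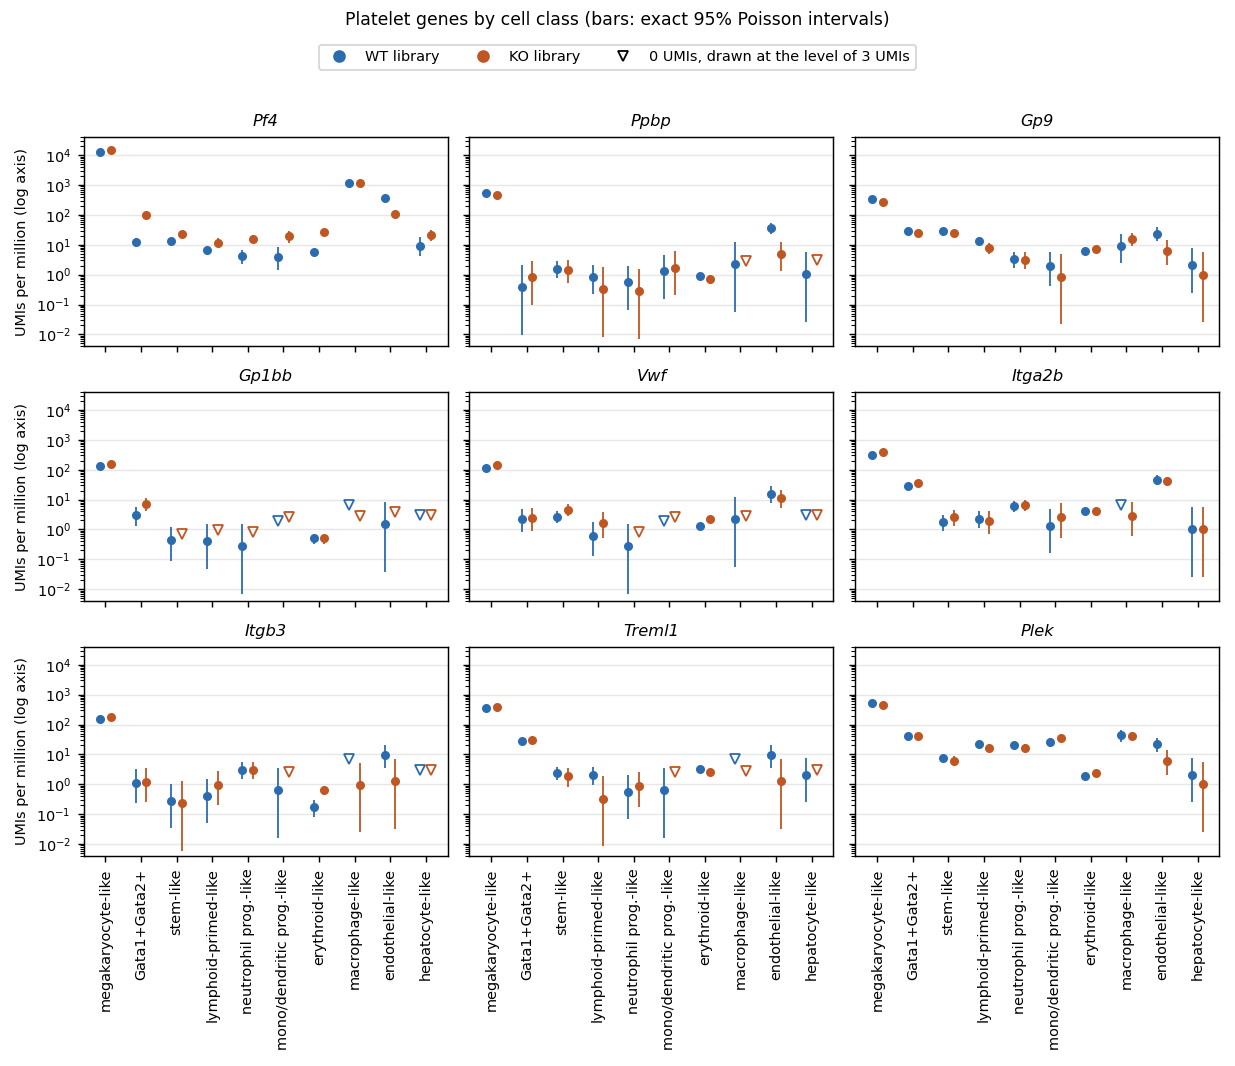
Level of each of the 9 platelet genes (CPM, log axis) in 10 gated cell classes of the WT library (blue) and the KO library (orange), with exact 95% Poisson intervals as bars and open triangles at the level of 3 UMIs where none was counted. The megakaryocyte-like points are the highest in every panel, and Pf4 is second in macrophage-like cells, at 1148 (WT) and 1137 (KO) CPM.

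Pf4 and Ppbp are neighbouring genes for granule chemokines, platelet factor 4 and pro-platelet basic protein, at chr5:90772435-90773383 and chr5:90768518-90770063 on the plus strand of GRCm38. In megakaryocyte-like cells the Pf4 level was 12990 CPM for WT (12811 to 13171) and 14791 CPM for KO (14657 to 14927). Ppbp stood at 531 CPM (495 to 569) and 458 CPM (435 to 483). Away from megakaryocyte-like cells the pair parted. Pf4 was next highest in macrophage-like cells, at 1148 and 1137 CPM, and in endothelial-like cells, at 357 and 106 CPM. Ppbp had 1 UMI in the WT and 0 UMIs in the KO macrophage-like cells, where 3 UMIs would be 2.88 CPM, so the Pf4 of that class came without Ppbp.

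Gp9 and Gp1bb encode subunits of the GPIb-IX-V receptor and lie at chr6:87778072-87779768 (plus strand) and chr16:18620317-18622403 (minus strand). Gp9 stood at 330 CPM (302 to 360) and 277 CPM (259 to 296) in megakaryocyte-like cells, and Gp1bb at 130 CPM (113 to 149) and 155 CPM (141 to 169). Gp1bb overlaps Sept5 on the same strand, so reads between them could be divided, and Sept5 itself had 5 and 10 UMIs in all. The subunits differed outside the class: Gp9 had 210 and 108 UMIs in stem-like cells, and Gp1bb had 3 and 0, where 3 UMIs would be 0.689 CPM in KO.

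Vwf, at chr6:125546774-125686679 on the plus strand, encodes von Willebrand factor, which is made in megakaryocytes and endothelium. It stood at 112 CPM (96.4 to 131) and 148 CPM (135 to 162) in megakaryocyte-like cells, and at 15.5 CPM (7.42 to 28.4) and 11.3 CPM (5.15 to 21.4) in endothelial-like cells. The endothelial intervals lay below the megakaryocyte intervals and above the erythroid-like level of 1.27 and 2.20 CPM in both libraries.

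Itga2b and Itgb3 encode the αIIb and β3 chains of the fibrinogen receptor and lie at chr11:102453297-102470122 (minus strand) and chr11:104608000-104670476 (plus strand). Itga2b, known as CD41 on the cell surface, stood at 304 CPM (277 to 333) and 391 CPM (369 to 413), and Itgb3 at 157 CPM (138 to 178) and 185 CPM (170 to 201) in megakaryocyte-like cells. Itga2b was next highest in endothelial-like cells, at 44.9 and 41.3 CPM, and in Gata1+Gata2+ cells, at 29.0 and 37.3 CPM, with overlapping intervals. Itgb3 stayed at 1.11 and 1.22 CPM in Gata1+Gata2+ cells, so the chains were not raised there alike.

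Treml1, at chr17:48359916-48367176 on the plus strand, encodes a receptor of alpha granules, and Plek, at chr11:16971206-17052381 on the minus strand, encodes pleckstrin, a protein kinase C substrate. Treml1 stood at 360 CPM (331 to 392) and 396 CPM (374 to 419) in megakaryocyte-like cells and Plek at 532 CPM (496 to 570) and 466 CPM (442 to 490). Plek was also present in other blood classes. It reached 42.7 and 43.0 CPM in Gata1+Gata2+ cells, 43.2 and 42.3 CPM in macrophage-like cells, 25.5 and 35.3 CPM in monocyte and dendritic progenitor-like cells and 23.2 and 16.4 CPM in lymphoid-primed-like cells, and its lowest level in a blood class was 1.86 and 2.32 CPM, in erythroid-like cells.

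Few cells thus carried most transcripts of several of these genes. Megakaryocyte-like cells held 86.9% of all Pf4 UMIs in WT and 88.8% in KO, 86.6% and 94.6% of Ppbp, and 82.0% and 86.6% of Itgb3. The share was lowest for Gp9, at 29.7% and 48.5%, followed by Plek, at 43.6% and 61.4%.

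The first question was how far the 9 genes separated megakaryocyte-like from stem-like cells. All 9 were called higher in megakaryocyte-like cells by edgeR's quasi-likelihood test with Benjamini-Hochberg adjustment, against 24.1% of the 12149 genes tested, and 0 lower, against 23.8%. The fit used 1 sum of UMIs per class and library with the library as a block, so its p-values measure only how the classes varied between 2 libraries that differ in genotype. The log2 difference was 9.65 for Pf4 (SE 0.46), 9.22 for Itgb3 (SE 0.32), 8.97 for Gp1bb (SE 0.31) and 8.40 for Ppbp (SE 0.16). Without cells passing another gate the Ppbp difference was 5.85, and its WT level was 19.2 in place of 531 CPM. It was smallest for Gp9, at 3.48 (SE 0.14, edgeR adjusted p = 3.56e-22), and next smallest for Vwf, at 5.20 (SE 0.20).

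Gp9 had the most UMIs of the 9 genes in stem-like cells. Its level was 30.0 CPM (26.1 to 34.4) for WT and 24.8 CPM (20.4 to 30.0) for KO, against 3.35 and 3.12 CPM in neutrophil progenitor-like, 6.34 and 6.95 CPM in erythroid-like, 13.8 and 7.86 CPM in lymphoid-primed-like and 2.08 and 1.01 CPM in hepatocyte-like cells. The stem-like intervals lay above those of the neutrophil, erythroid and lymphoid classes in each library. This level was not particular to stem-like cells. Gata1+Gata2+ cells stood at 29.4 and 25.1 CPM, endothelial-like cells at 23.2 and 6.26 CPM and macrophage-like cells at 9.09 and 15.4 CPM. The stem-like interval overlapped those of Gata1+Gata2+ cells in both libraries, endothelial-like cells in WT and macrophage-like cells in KO. Cells outside every gate with neither Hlf nor Mecom held 20.1 and 17.8 CPM. The next counts in stem-like cells were those of Pf4, at 13.7 and 22.7 CPM, and Plek, at 7.72 and 6.20 CPM.

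The other members were sparse in stem-like cells. Vwf had 19 and 20 UMIs (2.72 and 4.60 CPM), Treml1 17 and 8 (2.43 and 1.84 CPM), Itga2b 12 and 11 (1.71 and 2.53 CPM), Ppbp 11 and 6 (1.57 and 1.38 CPM) and Itgb3 2 and 1. These counts came from 387 and 331 cells, so each gene was seen in few of them.

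Against neutrophil progenitor-like cells, 2 of the 9 genes were called higher in stem-like cells, where 23.0% of genes tested were, and 3 were called lower, where 20.8% were. Gp9 was higher by 2.93 on the log2 scale (SE 0.29, edgeR adjusted p = 7.64e-11) and Vwf by 4.36 (SE 0.86, edgeR adjusted p = 8.23e-05). Vwf had 1 and 0 UMIs in the neutrophil class. Itga2b, Itgb3 and Plek were lower in stem-like cells, with log2 differences of -1.76, -3.57 and -1.58. Neutrophil progenitor-like cells held Itga2b at 6.14 and 6.52 CPM and Itgb3 at 3.07 and 3.12 CPM.

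Against lymphoid-primed-like cells, Gp9 (log2 1.20, SE 0.21, edgeR adjusted p = 2.70e-05) and Vwf (1.67, SE 0.53, edgeR adjusted p = 0.0168) were called higher in stem-like cells, beside 13% of genes tested. Plek was called lower (-1.61, SE 0.22), beside 12%. Against erythroid-like cells, 3 genes were called higher, beside 37.0% of genes tested, namely Gp9 (1.66, SE 0.15, edgeR adjusted p = 2.61e-12), Plek (1.38, SE 0.23) and Vwf (0.67, SE 0.29, edgeR adjusted p = 0.0390). Itga2b (-1.35, SE 0.28) and Treml1 (-0.79, SE 0.34) were called lower, beside 33.4%, and the Treml1 call held in 5 of 9 alternatives.

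Gp9 was called higher in stem-like cells in each of the 3 contrasts under all 9 alternatives tried, with log2 differences of 2.67 to 3.04, 1.16 to 1.87 and 1.58 to 1.82. Vwf was called in 9 of 9 alternatives against the neutrophil class but in 6 of 9 against each of the lymphoid and erythroid classes, with edgeR or DESeq2 adjusted p up to 0.211 and 0.264. Pf4 did not pass the test against the neutrophil, lymphoid or erythroid class, with adjusted p of 0.436, 0.374 and 0.799 by edgeR's quasi-likelihood test, and without a filter on low counts it passed against the neutrophil and lymphoid classes.

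The share of stem-like cells with a Gp9 UMI was above that of the neutrophil, lymphoid and erythroid classes, but not above that of Gata1+Gata2+ cells (46.8% and 35.3%, median depth 27370 and 20506 UMIs). It was 39.5% in WT (153 of 387 cells, median depth 16920 UMIs) and 26.9% in KO (89 of 331 cells, median depth 12161 UMIs). In neutrophil progenitor-like cells it was 8.93% and 6.85%, at the greater median depths of 31236 and 22965 UMIs. After every cell was thinned to 5000 UMIs, leaving out 5 WT and 12 KO stem-like cells under that depth, the shares were 16.5% and 11.6% in stem-like cells. They were 10.6% and 11.4% in Gata1+Gata2+, 6.17% and 4.05% in lymphoid-primed-like, 3.57% and 0.685% in neutrophil progenitor-like and 3.20% and 2.95% in erythroid-like cells.

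For Pf4 the stem-like share was again above those of the erythroid, neutrophil and lymphoid classes, with more overlap. The thinned Pf4 share was 6.54% and 10.3% in stem-like cells, against 2.83% and 7.66% in erythroid-like, 1.79% and 3.42% in neutrophil progenitor-like and 3.70% and 6.08% in lymphoid-primed-like cells. Gata1+Gata2+ cells stood at 6.38% and 14.9%, so stem-like cells were not the highest of these in KO. Hepatocyte-like cells stood at 0% and 7.50%, from 21 and 40 cells. In the KO library the stem-like interval overlapped those of the erythroid, lymphoid and neutrophil classes, and in the WT library those of the lymphoid and neutrophil classes. Thinned Vwf shares were 2.09% and 2.82% in stem-like cells, 0.800% and 0.880% in erythroid-like cells and 0 in the neutrophil class, where 0 of 112 and 0 of 146 cells were positive and 3 cells would be 2.68% and 2.05%.

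**Figure D2:**
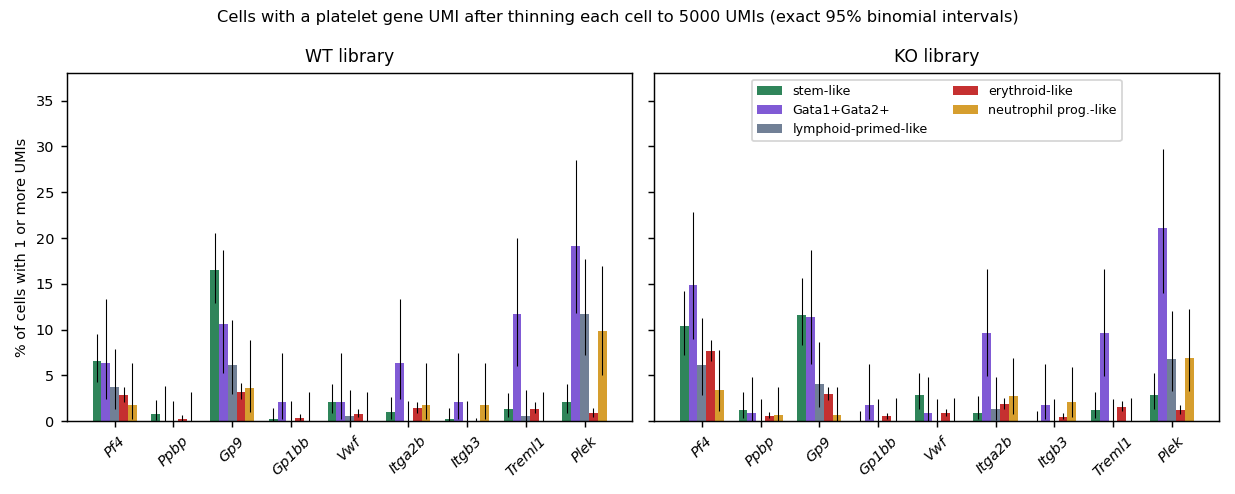
Percent of cells with at least 1 UMI of each gene after each cell was thinned to 5000 UMIs, in 5 classes of the WT library (left) and the KO library (right), with exact 95% binomial intervals as bars. The stem-like bar (green) is above those of the lymphoid, erythroid and neutrophil classes for Gp9, at 16.5% in WT and 11.6% in KO, and by less for Pf4, at 6.54% and 10.3%, while Itga2b, Treml1 and Plek rise in the Gata1+Gata2+ bar (purple).

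Most Gp9-positive stem-like cells held 1 UMI, 111 of 153 in WT and 74 of 89 in KO, and no stem-like cell held more than 4. By comparison the median megakaryocyte-like cell held 10.5 Gp9 UMIs in WT and 7.5 in KO. Leaving out stem-like cells with 4 or more megakaryocyte markers, an alternative chosen after seeing the data, left Gp9 at 30.1 and 24.9 CPM. It kept 385 of 387 WT and 330 of 331 KO cells, so the level could hardly change.

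The genes also stood in different proportions in the 2 classes. For each 100 Pf4 UMIs, megakaryocyte-like cells held 2.54 Gp9 UMIs in WT and 1.87 in KO, whereas stem-like cells held 219 (171 to 281) and 109 (82.3 to 145). The ratio was 108 and 25.2 in erythroid-like cells and 80.0 and 19.3 in neutrophil progenitor-like cells. It was lower in KO than in WT in all of these classes, and in KO it was higher in stem-like cells than in the erythroid and neutrophil classes with no overlap of intervals. In WT the ratio was 239 (158 to 371) in Gata1+Gata2+ and 206 (134 to 322) in lymphoid-primed-like cells, which overlapped the stem-like interval. In KO those classes held 62 and 24 Gp9 UMIs beside 240 and 36 Pf4 UMIs.

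**Figure D3:**
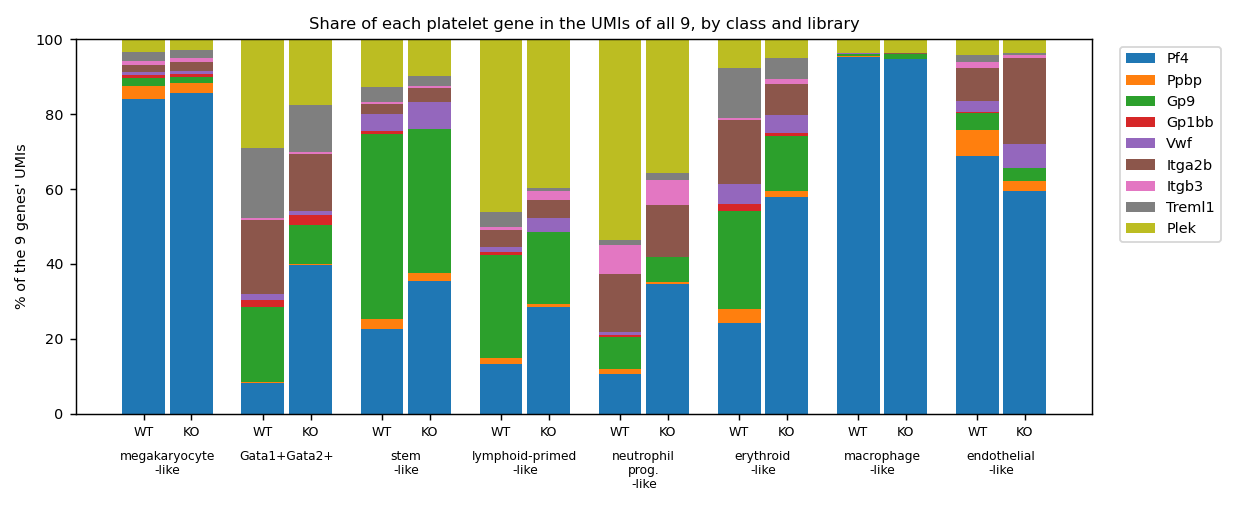
Share of each gene in the summed UMIs of all 9 platelet genes, in percent, for 8 cell classes of the WT and KO libraries. Pf4 takes 84.1% and 85.7% of the sum in megakaryocyte-like cells, whereas Gp9 takes 49.5% and 38.6% in stem-like cells and Pf4 22.6% and 35.4%.

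Stem-like cells with and without a Gp9 UMI held Pf4 at shares that overlapped. In WT, a Pf4 UMI was present in 30 of 153 Gp9-positive cells (19.6%, 95% exact binomial interval 13.6 to 26.8) and in 54 of 234 Gp9-negative cells (23.1%, 17.8 to 29.0). In KO, the shares were 25.8% (17.1 to 36.2) and 20.7% (15.7 to 26.3). At 1 UMI in most positive cells, a weak relation was not detectable at this depth.

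The share of stem-like cells with UMIs of 2 or more of the 9 genes, after thinning to 5000 UMIs, was 2.09% in WT (8 of 382 cells, 0.908 to 4.08) and 3.76% in KO (12 of 319 cells, 1.96 to 6.48). The difference of 1.67 percentage points had an interval of -1.02 to 4.63 and was within counting error. The background share was 0.923% and 2.20% in erythroid-like cells and 2.68% and 1.37% in neutrophil progenitor-like cells, which overlapped the stem-like intervals. Gata1+Gata2+ cells stood above, at 13.8% (7.57 to 22.5) and 14.9% (8.93 to 22.8). This was not particular to them. Endothelial-like cells stood at 20.9% and 21.1%, from 43 and 57 cells. Macrophage-like cells stood at 10% and 15.7%, from 20 and 51 cells, and their WT interval overlapped that of stem-like cells.

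In Gata1+Gata2+ cells, 5 of the 9 genes were called higher than in stem-like cells, beside 14.6% of genes tested. The log2 difference was 4.13 for Gp1bb (SE 0.71), 4.04 for Itga2b (SE 0.27), 3.77 for Treml1 (SE 0.31) and 2.65 for Plek (SE 0.20), and these 4 calls held under all 9 alternatives. The Gp1bb value rests on 8 and 17 UMIs against 3 and 0 in stem-like cells and ran from 3.58 to 8.83 over the alternatives, so its size is uncertain. Itga2b rose from 1.71 and 2.53 CPM to 29.0 and 37.3 CPM, and Treml1 from 2.43 and 1.84 CPM to 27.5 and 30.8 CPM, with no overlap of intervals in either library. Pf4 was called higher by 1.55 (SE 0.52, edgeR adjusted p = 0.0193), yet in 5 of 9 alternatives only, with adjusted p up to 0.577, and its WT level of 12.3 CPM was not above the stem-like 13.7 CPM.

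Gp9 behaved otherwise, at 29.4 and 25.1 CPM in Gata1+Gata2+ cells and a log2 difference from stem-like cells of 0.04 (SE 0.19, edgeR adjusted p = 0.916). Itgb3, Vwf and Ppbp did not pass the test either and had at most 6 UMIs in each library. Without cells that held 4 or more megakaryocyte markers, Itga2b stood at 21.2 and 31.2 CPM, Treml1 at 17.8 and 17.7 CPM and Gp9 at 18.3 and 16.3 CPM in Gata1+Gata2+ cells, where Gp9 was called lower than in stem-like cells (log2 -0.63, edgeR adjusted p = 0.0367). This kept 75 of 94 and 102 of 116 Gata1+Gata2+ cells, but 385 of 387 and 330 of 331 stem-like cells. Since it took cells rich in megakaryocyte markers almost only from 1 side, that call cannot show how Gp9 differs between the classes.

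Between KO and WT megakaryocyte-like cells, 0 of the 9 genes differed by more than 1.5-fold, where 13.8% of the 9157 genes with at least 20 UMIs did. The log2 ratio of KO over WT was 0.39 for Vwf (counting interval 0.14 to 0.65), 0.36 for Itga2b (0.20 to 0.52), 0.19 for Pf4 (0.16 to 0.21), -0.21 for Ppbp (-0.34 to -0.09) and -0.25 for Gp9 (-0.41 to -0.09). The median over the 9 genes was 0.19, beside -0.01 over all genes. 6 genes were above and 3 below WT.

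These ratios depended on a few cells. Without cells called doublets by Scrublet (1 of 32 in WT, 8 of 72 in KO), Ppbp had 308 WT and 1390 KO UMIs, or 215 and 508 CPM, so that its log2 ratio turned from -0.21 to 1.24, and the median of the 9 genes went to 0.55. Without the 10 WT and 28 KO cells that also passed another gate, the log2 ratio was 3.04 for Ppbp, 1.12 for Itgb3, 0.82 for Gp1bb, 0.73 for Pf4 and 0.72 for Vwf, from 22 and 44 cells. Among female cells only, Pf4 went to -0.08 and the median to -0.08.

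Markers of other cell types were present in the megakaryocyte-like sums. All 8 hepatocyte markers had UMIs in both libraries and summed to 4500 and 2507 CPM, with a median per cell of 31.0 and 66.5 CPM. Of the 8 macrophage markers 7 had UMIs in each library, summing to 371 and 52.8 CPM with a median per cell of 0. The 8 erythroid markers summed to 228 and 322 CPM, the neutrophil progenitor markers (5 of 8 with UMIs) to 33.8 and 88.5 CPM, and the endothelial markers (4 and 8 of 8) to 26.7 and 67.6 CPM. The part of these markers in the KO against WT values was not tested.

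In stem-like cells, 6 of the 9 genes had at least 20 UMIs over both libraries, and 2 of these differed by more than 1.5-fold, where 7.69% of 10908 genes did. Pf4 was higher in KO by 0.73 on the log2 scale (0.31 to 1.15), from 96 and 99 UMIs. The 8 hepatocyte markers moved the same way in these cells, summing to 69.3 CPM in WT and 128 in KO, with a median per cell of 64.7 and 125 CPM; their part in the Pf4 value was not tested. Vwf was higher by 0.76 (-0.22 to 1.75), an interval that includes 0. Gp9 stood at -0.27 (-0.62 to 0.07), Plek at -0.31 (-1.04 to 0.38), Treml1 at -0.40 (-1.82 to 0.89) and Itga2b at 0.56 (-0.76 to 1.87), and Ppbp, Gp1bb and Itgb3 fell under the minimum.

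The higher Pf4 of the KO library was not particular to stem-like cells. Its log2 ratio of KO over WT was 2.99 (2.46 to 3.56) in Gata1+Gata2+, 2.27 (0.93 to 3.87) in monocyte and dendritic progenitor-like, 2.23 (2.06 to 2.40) in erythroid-like, 1.95 (1.11 to 2.88) in neutrophil progenitor-like and 0.81 (0.09 to 1.54) in lymphoid-primed-like cells. With gates set on thinned cells the Gata1+Gata2+ ratio was -0.38 (-0.50 to -0.27), in 29 and 50 cells. Under those gates 4 and 13 cells were megakaryocyte-like, in place of 32 and 72. Cells no longer passing that gate could enter the Gata1+Gata2+ class, so the 2 ratios describe different sets of cells. The part of such cells was not tested. The ratio was -0.01 (-0.17 to 0.14) in macrophage-like cells and -1.75 (-2.12 to -1.38) in endothelial-like cells. Genes past 1.5-fold were 9.65% of those tested in the lymphoid, 8.84% in the neutrophil, 15.5% in the monocyte and dendritic, 21.9% in the macrophage and 17.9% in the endothelial class. Pf4 was past it also in hepatocyte-like cells (1.18, -0.01 to 2.49), where 17.4% of genes were, in ungated cells with Hlf or Mecom (2.26, 1.95 to 2.59), where 7.26% were, and in ungated cells with neither (0.96, 0.78 to 1.15), where 9.01% were. Over whole libraries the Pf4 level was 212 (WT) and 522 (KO) CPM, and outside megakaryocyte-like cells 28.1 and 60.4 CPM, beside 0.925% and 1.63% megakaryocyte-like cells. The part of these library levels in the class values was not tested.

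Few cells held much of that excess in the Gata1+Gata2+ class. Its 240 KO Pf4 UMIs came from 33 of 116 cells, of which 10 held 4 or more and 1 held 54, against 33 UMIs from 19 of 94 WT cells, of which 2 held 4 or more. Without cells holding 4 or more megakaryocyte markers, Pf4 had 13 WT and 91 KO UMIs, or 6.42 and 42.4 CPM, a log2 ratio of 2.72. Of the 6 genes with enough UMIs in this class, Pf4 and Gp1bb (log2 1.21, -0.08 to 2.63) were past 1.5-fold, where 11.3% of genes were. In erythroid-like cells Pf4, Itgb3 (1.94, 0.90 to 3.11) and Vwf (0.79, 0.37 to 1.22) were past it, where 7.64% were, with Itgb3 at 10 and 37 UMIs.

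**Figure D4:**
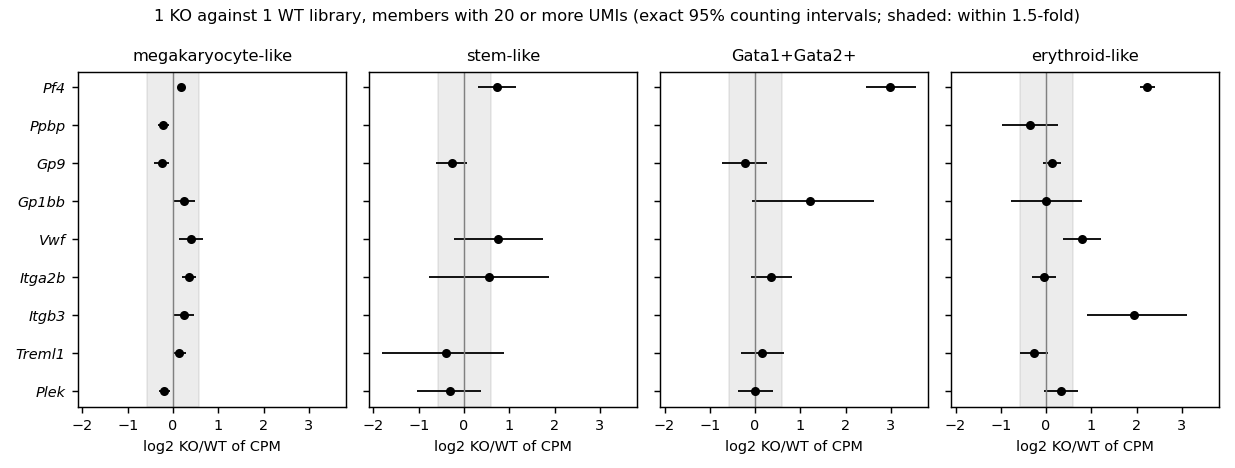
Log2 ratio of KO over WT CPM with exact 95% counting intervals for genes with at least 20 UMIs in megakaryocyte-like, stem-like, Gata1+Gata2+ and erythroid-like cells, from 1 library each; the grey band covers changes within 1.5-fold. All 9 megakaryocyte-like values lie in the band, and Pf4 lies to its right at 0.73 in stem-like, 2.99 in Gata1+Gata2+ and 2.23 in erythroid-like cells. The megakaryocyte-like values depended on a few cells. Without cells passing another gate, Ppbp (19.2 CPM in WT, 157 in KO), Itgb3, Gp1bb, Pf4 and Vwf were past 1.5-fold, and Gp9, Itga2b, Treml1 and Plek were within it. Gates set on thinned cells gave -0.38 in a Gata1+Gata2+ class with a different set of cells, 29 and 50 in place of 94 and 116.

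Within the megakaryocyte-like class the cells varied widely, and Ppbp was the most uneven of the 9 genes by the share of UMIs held in 2 cells. Pf4 ranged from 0 to 4175 UMIs per cell in WT with a median of 325, and from 0 to 4358 in KO with a median of 504.5. Gp9 and Plek were found in 32 of 32 WT cells and in 70 and 72 of 72 KO cells. Ppbp was found in 10 of 32 and 36 of 72 cells, and 2 WT cells held 750 of its 817 UMIs (91.8%), where 2 KO cells held 772 of 1424 (54.2%). All 9 genes were detected in 8 WT and 33 KO cells.

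The cells with 10 or more Ppbp UMIs, 3 in WT and 11 in KO, were richer in each of the other 8 genes than the cells with fewer. The CPM ratio was 7.41 in WT and 4.58 in KO for Itgb3, 3.73 and 2.76 for Pf4, 3.10 and 3.17 for Itga2b, and 2.63 and 3.41 for Vwf. It was 1.83 and 1.76 for Plek, the lowest of the 8 in each library. F5, a coagulation factor stored in platelets, had ratios of 11.96 and 7.21, while Gata2 had 0.05 and 0.35 and Mki67, a gene of cycling cells, 0.85 and 0.82. The WT Gata2 ratio rests on 1 UMI in the 3 Ppbp-rich cells. The Ppbp-rich cells were deeper, at median depths of 100103 against 42628 UMIs in WT and 58829 against 39650 in KO, and since they were chosen on Ppbp these ratios are descriptions. Without cells passing another gate, Ppbp fell from 817 to 16 UMIs in WT and from 1424 to 251 in KO. All 3 WT Ppbp-rich cells thus also passed the gate of another cell type. The part of transcripts of other cell types in these ratios was not tested.

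**Figure D5:**
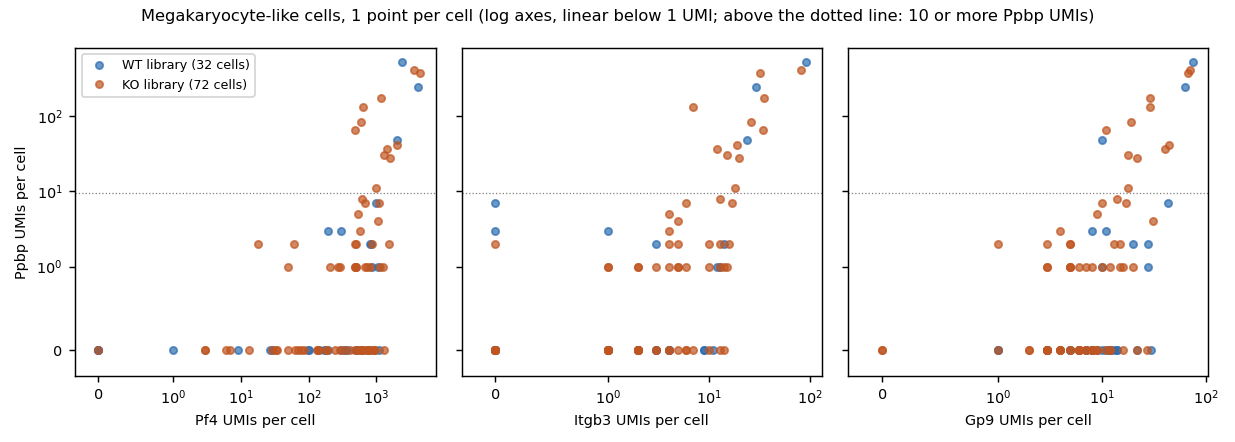
UMIs of Ppbp (vertical) against Pf4, Itgb3 and Gp9 (horizontal) in each megakaryocyte-like cell, 32 of WT (blue) and 72 of KO (orange), on log axes that are linear below 1 UMI. The 3 WT and 11 KO cells above the dotted line hold 10 or more Ppbp UMIs and from 490 to 4358 Pf4 UMIs, and the cells at 0 Ppbp reach 1088 Pf4 UMIs in WT and 1285 in KO. All 3 WT cells above the line also passed the gate of another cell type.

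Other platelet genes were read from 5 lists of surface proteins, granule cargo, signalling, cytoskeleton and transcription factors, leaving out genes that served as gate markers. Against stem-like cells, megakaryocyte-like cells were higher in 13 and lower in 1 of 16 surface genes, 10 and 3 of 14 granule genes, 10 and 2 of 14 signalling genes, 8 and 0 of 8 cytoskeleton genes and 8 and 3 of 12 transcription factors, by edgeR at an adjusted p under 0.05, where 24.1% of all genes tested were higher and 23.8% lower. The median log2 difference ran from 0.77 for transcription factors to 2.29 for the cytoskeleton, beside -0.03 over all genes tested.

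The genes of these lists with the highest levels moved by very unequal amounts. Cd9, a tetraspanin, stood at 523 and 497 CPM in megakaryocyte-like cells and was 3.86 higher on the log2 scale, and Rap1b, a GTPase that activates integrins, stood at 2016 and 1850 CPM and was 4.12 higher. Srgn, the proteoglycan core of granules, was higher in stem-like cells (528 and 499 CPM) than in megakaryocyte-like cells (298 and 245 CPM).

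Gata1+Gata2+ cells were higher than stem-like cells in 3 and lower in 6 of 16 surface genes, 4 and 4 of 14 granule genes, 3 and 5 of 14 signalling genes, 1 and 1 of 8 cytoskeleton genes and 5 and 5 of 12 transcription factors, where 14.6% of all genes tested were higher and 16.4% lower. Stem-like cells were higher than neutrophil progenitor-like cells in 9 and lower in 0 of 16 surface genes, 9 and 0 of 12 transcription factors, 5 and 7 of 14 granule genes, 4 and 4 of 14 signalling genes and 3 and 2 of 8 cytoskeleton genes, where 23.0% of all genes tested were higher and 20.8% lower. Between KO and WT, medians were taken over the whole lists, gate markers included, for genes with at least 20 UMIs. They lay between -0.25 and -0.01 in megakaryocyte-like cells and between -0.27 and -0.04 in stem-like cells.

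The gene most like each member was sought by Pearson's r of log2(CPM + 1) over the 20 sums of 10 classes in 2 libraries, which share their libraries, and no p is given. For Pf4 these were Rnasek (r = 0.907), Rap1b (0.898) and Ptpn11 (0.884). For Ppbp they were Reep2 (0.981), Ly6g6f (0.979) and Gp6 (0.972), for Gp1bb Kcnj5 (0.984), Tubb1 (0.980) and F2rl2 (0.974), and for Itgb3 Cxcl5 (0.959), Gm10419 (0.959) and Ly6g6f (0.954). For Gp9 they were 5033406O09Rik (0.944), Gucy1b1 (0.939) and Gnaz (0.937), and Gucy1b1 was also near Vwf (0.947), after Alox12 (0.954) and Timp3 (0.951). Itga2b was nearest to Unc119 (0.958), Ripor3 (0.935) and Timp3 (0.927), Treml1 to Tubb1 (0.943), Rab27b (0.937) and P3h2 (0.935), and Plek to Rap1b (0.923), Ccdc12 (0.907) and P2rx1 (0.897). Gp6, Tubb1, F2rl2, Alox12 and Rab27b are themselves markers of the megakaryocyte gate.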

How the data were processed

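Lineage-depleted LSK cells of E14.5 fetal liver were profiled in 1 WT and 1 KO library. Per the labels, the authors aligned and counted reads with Cell Ranger 6.0.0 on mm10 and deposited the UMI counts as whole numbers for each gene in each barcode, without normalization; the annotation they used is not given in the sources used here. Replicate libraries were not analysed here, and no per-sample column was left unused.

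Barcodes needed at least 1000 genes and no more than 20% mitochondrial UMIs, and doublets were called with Scrublet in scanpy 1.11.5 (3.90% of WT and 5.80% of KO cells) but left in. The filter removed 382 WT and 511 KO barcodes. Cells were gated by how many different markers of a list they held, and a cell passing more than 1 gate entered no class, except that megakaryocyte-like cells were kept when they passed another gate. The other gates needed 4 of 8 erythroid, 5 of 8 neutrophil, 4 of 8 monocyte and dendritic, 3 of 8 lymphoid, 4 of 8 macrophage, 5 of 8 endothelial or 7 of 8 hepatocyte markers. These numbers were settled after seeing the distributions, and the genes and lists were chosen with earlier results of these data known. In WT 29 and in KO 13 cells with 5 or 6 megakaryocyte markers lay just under the gate, with Pf4 at 245 and 681 CPM.

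UMIs were summed per class and library. KO over WT ratios are given for genes with at least 20 UMIs over both libraries, with exact conditional intervals; shares have exact Clopper-Pearson intervals. Classes were compared with edgeR 4.0.16 (R 4.3.3; TMM, filterByExpr, library as a block), and DESeq2 1.42.0 was an alternative; the edgeR fit and the intervals were tested on simulated data. Named were the 9 genes, Nfkbia, the 2 genes of each list highest in WT megakaryocyte-like and in WT stem-like cells, and for each member the 3 genes most like it; other genes were named after their values were seen. Other alternatives changed the cell filter, the gates, the scaling, the low-count filter and the thinning depth, or left out doublets, male cells or a library. Coordinates are from the GRCm38 annotation, which held 32158 of the 32285 gene IDs. Leaving out megakaryocyte-like cells that passed another gate, leaving out other cells with 4 or more megakaryocyte markers, and the median over cells were alternatives chosen after seeing the data. A gene that the naming rule selects is not reported here.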

Additional observations from a re-analysis of the deposited data

How the results depend on the processing

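Of the recomputed summary values, 79 stayed within counting error or 1.5 times of the reported ones and the others, given below, moved past that; of single-gene values 537 stayed, 29 moved, 9 whose reported value was called or had an interval clear of 0 changed sign, 4 gained and 19 lost a call. The median log2 ratio of KO over WT in megakaryocyte-like cells, 0.19 as reported, was 0.55 without Scrublet doublets, -0.038 with gates set on thinned cells (4 and 13 cells), -0.080 in female cells, 0.72 without cells passing another gate and 0.56 as a mean over cells. Among its genes, Ppbp turned to 1.24 without doublets, 3.04 without cells passing another gate and 1.11 as a mean over cells. Thinned gates turned Pf4 to -0.30, Gp1bb to -0.015 and Itgb3 to -0.038, and female cells turned Pf4 to -0.080 and Gp1bb to -0.0094. In Gata1+Gata2+ cells, thinned gates put the median at -0.38 and Pf4 at -0.38. That class held 29 and 50 cells and could take in cells that no longer passed the megakaryocyte gate. The difference in stem-like cells with 2 or more of the genes was -4.02 percentage points without thinning, where WT cells are deeper. The causes of the other shifts were not tested.

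Fitted without the library as a block, the number of genes called higher was 9 for megakaryocyte-like against stem-like cells, 4 for Gata1+Gata2+ against stem-like cells and, for stem-like cells, 2 against neutrophil, 1 against lymphoid and 2 against erythroid cells. The lymphoid count was also 1 with DESeq2 and with thinned gates, and the erythroid count 1 with thinned gates. With 1 library alone there is no test, and the number of genes whose counting interval lay above 0 was 9 to 9, 4 to 5, 3 to 4, 3 to 3 and 3 to 4 in that order. No paired analysis was possible for KO against WT because each genotype had 1 library. Most members had under 25 UMIs per library in stem-like cells, so small differences there were not detectable at this depth.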

Other observations

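Cells outside every gate held platelet transcripts as well. In ungated cells with Hlf or Mecom but not both, 432 in WT and 485 in KO, Gp9 stood at 21.5 and 16.7 CPM and was found in 10.4% and 8.53% of cells after thinning to 5000 UMIs, while Vwf stood at 0.548 and 2.42 CPM. In ungated cells with neither gene, 281 and 417, Gp9 stood at 20.1 and 17.8 CPM and Vwf at 0.324 and 1.92 CPM. The 12 WT and 6 KO cells that passed both the Hlf Mecom and the Gata1 Gata2 gate held Gp9 at 76.6 and 37.6 CPM, from 27 and 7 UMIs, and no Vwf UMI, where 3 UMIs would be 8.51 and 16.1 CPM.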
